A study of Caenorhabditis elegans with 2 samples.

Results

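NHR-11, a nuclear hormone receptor of Caenorhabditis elegans, was mapped by ChIP-seq, in which DNA bound to a protein is pulled down and sequenced, in whole L4 larvae, the stage before adulthood. The results described here concern 1541 weaker peaks in intergenic sequence that were found in both replicates. They were taken from a pooled list, made from both replicates together, whose 13558 entries include background regions as well as peaks. Every entry is termed a peak here, so some of the 1541 may be background. These peaks were selected on 2 measured values and on position. Their pooled signal, a strength from the authors' peak calling whose scale is not given, lay below 54.9, the lowest signal of the authors' thresholded list of 2719 peaks. Their interval also held a summit of each replicate's own list, which held 19074 peaks and background regions in replicate 1 and 22137 in replicate 2. Their own summit lay outside the promoter windows of protein-coding genes (1000 bp before to 200 bp after the annotated start), outside protein-coding genes and in no exon, with piRNA genes ignored. Since signal, replication and position chose the peaks, these values are given as a description without a test.

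Both replicates came from the strain OP305, genotype unc-119(ed3) III; wgIs305, in which wgIs305 is the transgene, and the ChIP is described as against eGFP-tagged NHR-11, while the antibody label names nhr-11 itself. The unc-119(ed3) mutation and the transgene were shared by all animals, which were of mixed sex and pooled as whole organisms, so tissues cannot be told apart. The study thus has a single group of 2 biological replicates from 1 strain. No ChIP of untagged animals was used here, so binding of the receptor and sites recovered in any ChIP cannot be told apart. Sequencing depth is unknown, because the files hold peaks and not reads, and intervals cover the counting of peaks only. Coordinates are those of build ce11, counted from 1.

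Nuclear hormone receptors are transcription factors that bind DNA through a pair of zinc fingers, classically at copies of a short core site, and the family is greatly expanded in nematodes. In the compact worm genome most regulatory DNA lies close to gene starts, while intergenic elements further away act as enhancers or as promoters of noncoding RNAs. Runs of alternating G and A are bound in Drosophila by the GAGA factor, a protein known for opening chromatin at promoters and enhancers.

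The sequence that led those more frequent at the summits of these peaks than beside them was such a GA repeat, GAGAGA read on either strand (TCTCTC on the other). The 101 bases around a summit (50 bp on each side) are shown for 6 of the strongest peaks that carry it, all on the forward strand of ce11 with the repeat in capitals. The lines are named by the nearest protein-coding start, and they show that the repeat took different forms, from a run of 20 alternating bases near K09A11.1 to a single short copy near nhl-3.
K09A11.1, chrX:13264748-13264848: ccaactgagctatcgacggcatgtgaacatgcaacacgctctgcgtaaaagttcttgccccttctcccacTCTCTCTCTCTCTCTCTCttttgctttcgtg
heh-1, chrIII:3200712-3200812: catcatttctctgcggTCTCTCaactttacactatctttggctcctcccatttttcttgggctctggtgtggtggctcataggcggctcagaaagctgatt
abi-1, chrIII:5688379-5688479: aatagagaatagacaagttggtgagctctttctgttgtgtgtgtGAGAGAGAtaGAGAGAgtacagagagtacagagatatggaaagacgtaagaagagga
nhl-3, chrII:603118-603218: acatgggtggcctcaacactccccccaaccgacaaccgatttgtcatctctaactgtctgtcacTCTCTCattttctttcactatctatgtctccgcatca
pfk-1.1, chrX:2939364-2939464: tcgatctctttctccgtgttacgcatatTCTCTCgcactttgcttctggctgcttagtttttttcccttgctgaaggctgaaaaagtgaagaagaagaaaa
nlp-47, chrIV:5289083-5289183: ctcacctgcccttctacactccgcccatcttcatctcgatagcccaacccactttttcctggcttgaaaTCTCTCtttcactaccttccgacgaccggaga

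A pair of other motifs were also more frequent at the summits, the E-box CACCTG, a core site of basic helix-loop-helix and some zinc finger factors, and TGACGT, part of the cyclic AMP response element bound by bZIP factors. A strong peak with each is printed with the motif in capitals, again on the forward strand. The first is the nlp-47 peak shown above, which holds the E-box near its left end and the GA repeat to the right of its summit. The second lies nearest to R13H4.5 and carries TGACGT as its reverse complement.
nlp-47, chrIV:5289083-5289183: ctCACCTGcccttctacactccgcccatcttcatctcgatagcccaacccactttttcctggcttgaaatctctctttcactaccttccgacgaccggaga
R13H4.5, chrV:11857305-11857405: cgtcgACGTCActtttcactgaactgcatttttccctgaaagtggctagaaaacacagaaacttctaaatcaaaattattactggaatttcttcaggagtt

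The weaker replicated intergenic peaks made up 25.4% of the 6064 weaker peaks found in both replicates, beside 1979 in promoters, 1473 in introns and 1071 in exons. Of 2695 weaker pooled peaks in intergenic sequence, 1541 (57.2%) were found in both replicates, 453 in replicate 1 only, 655 in replicate 2 only and 46 in neither. The pooled signal of the 1541 ran between 21.6 and 54.8 with a median of 32.8. All 1541 intervals were 376 bp wide. The authors' −log10 q values had a median of 0.51 and a highest value of 2.09, and 272 of the peaks (17.7%) had a q of 0.05 or less by those values, against all 639 thresholded intergenic peaks. The members nearest below the limit had pooled signals of 54.76 (nearest start trx-4), 54.76 (dmd-6) and 54.75 (aat-2), and the thresholded intergenic peaks just above it had 54.92, 54.92 and 55.01. The weakest, named after its value was seen, lay nearest to Y54G11A.19, with a pooled signal of 21.6.

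Within the replicates' own lists the members were of middling rank. Their signal had a median of 16.6 in replicate 1 and 15.9 in replicate 2, against medians of 41.0 and 42.2 for thresholded intergenic peaks. Median ranks were 7037 in replicate 1 and 7449 in replicate 2, against 1419 and 1436 for the thresholded intergenic peaks. Only 7 of the 1541 stood among the 2719 strongest peaks of both replicates, against 456 of 639 thresholded intergenic peaks. Over the 1541 peaks the 2 replicates' signals had a Spearman's rho of 0.27, against 0.63 over the 635 thresholded intergenic peaks matched in both. Both values are descriptions over peaks that are no independent replicates, and the narrow range of signal that chose the weaker peaks is part of the comparison.

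**Figure D1:**
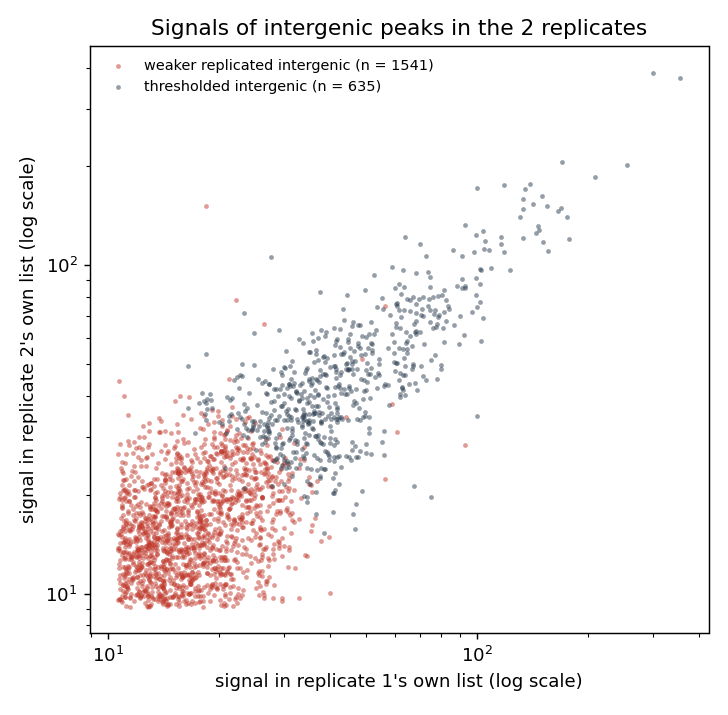
Signal of each intergenic peak in replicate 1's own list (x axis, log scale) and replicate 2's own list (y axis, log scale), 1 point per peak, for weaker replicated peaks (red) and thresholded peaks (dark). The weaker peaks form a cloud around 16.6 and 15.9 with little order between the replicates, and a few points far above it belong to peaks that share a replicate summit with another pooled peak.

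A few members ranked far higher in 1 replicate's list than in the other's. The peak nearest to T27A8.7 on X (summit 16056769) had a pooled signal of 24.2 and ranked 5612 in replicate 1 (signal 18.4) and 61 in replicate 2 (signal 151.2). The peak nearest to sdz-38 on II (summit 9985184) had a pooled signal of 41.5 and ranked 266 in replicate 1 (signal 92.7) and 2801 in replicate 2 (signal 28.4). In both cases the summit of the replicate with the higher rank lay far from the pooled summit, at 165 bp and 174 bp, and also inside the interval of another pooled peak. Such sharing held for 93 of the 1541 (6.04%), and for 32 the other peak was a thresholded one. Over the other 1448, the highest signal was 36.8 in replicate 1 and 44.5 in replicate 2, and rho was again 0.27. These genes were chosen after their values were seen.

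The replicates' summits lay further from the pooled summits in the weaker peaks than in the thresholded ones. Replicate summits were part of the rule, and the thresholded list was chosen for reproducibility, so these values are a description without a test. A summit of each replicate lay within 50 bp of the pooled summit for 849 of 1541 (55.1%, 95% exact Clopper-Pearson interval 52.6 to 57.6), against 489 of 639 thresholded intergenic peaks (76.5%, 73.0 to 79.8). The share was 55.3% in weaker promoter peaks and 53.2% in weaker intron peaks. The median distance between the replicates' summits was 44 bp, against 26 bp for thresholded intergenic peaks. At 398 of the weaker peaks (25.8%) the replicates' summits lay over 100 bp apart. The replicates' summits thus fix the windows around the pooled summit less closely here, and the cause was not tested. The tests given below, with a threshold of 0.05, take peaks as units, and neighbouring peaks are not independent, so the p values speak of these lists only.

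The GA repeat GAGAGA lay within 50 bp of the summit at 261 of the 1541 weaker replicated intergenic peaks (16.9%, interval 15.1 to 18.9). In windows of the same length 300 to 400 bp to the left it lay at 74 (4.80%), and over all positions that follow the same position rule, called eligible bases here, it lay in 5.20% of windows. The repeat was present only at the centre in 249 peaks and only in the flank in 62 (exact McNemar test, adjusted p = 2.32e-26, Benjamini-Hochberg over 22 motifs). Of the 22 motifs, 3 were more frequent at the centre (13.6%) and 1 was less frequent (4.55%). The E-box CACCTG lay at the centre of 80 peaks and in the flank of 39, and TGACGT at 89 and 45 (exact McNemar tests, adjusted p = 0.00091 each). TATAAA, the TATA box, was the motif that was less frequent, at 138 centres against 205 flanks (exact McNemar test, adjusted p = 0.00091). Centres were richer in G and C, with a mean of 38.6% ± 7.95 (SD, n = 1541) against 33.4% ± 7.80 in the left flank, and the part of base composition in these calls was not tested. The TGACGT call was lost with a centre of 25 bp on each side (adjusted p = 0.072 in the exact McNemar test), and without the need for a summit of replicate 1, which changes the choice of pooled peaks but not the pooled list, the number of motifs called was 7 in place of 4. Those added were the GATA site and the E-box CAGCTG, higher at the centre, and the core site of homeodomain proteins, lower.

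The core site of nuclear hormone receptors, AGGTCA, was not among the motifs called. It lay within 50 bp of 49 summits (3.18%) and in 45 flanks (2.92%), with 47 peaks having it only at the centre and 43 only in the flank (exact McNemar test, adjusted p = 0.919). The extended site AAGGTCA lay at 14 centres and 17 flanks, and AAGTCCA, of the kind bound by HNF4, at 9 and 11, with adjusted p of 0.919 and 0.954 in the same exact test. Other motifs that did not pass included the octamer of POU factors, ATTTGCAT (14 and 8), the B box core of tRNA genes, GGTTCGA (16 and 13), and CCAAT (285 and 285). These counts concern these letters in these windows only.

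Across all 6-mers, read on both strands, 201 were more frequent at the centre (9.66%) and 117 were less frequent (5.62%; exact McNemar tests, Benjamini-Hochberg over all of them). GA repeats led the first group. AGAGAG lay at 223 centres and 52 flanks, AGAGAA at 307 and 133, and CTCTCA at 168 and 48, with adjusted p between 3.36e-25 and 9.90e-16 in the exact McNemar tests. Other kinds of 6-mer followed, among them CGTCTC (105 and 31), CACACA (161 and 74) and CGCAGA (95 and 30). The second group was rich in A and T, with a mean of 0.95 letters G or C, against 3.58 in the first. It was led by AAAATT (417 and 725), TTAAAA (15.2% of centres and 31.2% of flanks) and AAAAAT (523 and 793), and 30 of its 117 members held no G or C, against 0 of the 201.

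The alternating order stood above other orders of the same letters. Of the 20 6-mers with 3 A and 3 G, 12 were more frequent at the centre and 0 were less frequent, and their median ratio of centres to flanks was 1.53. The alternating AGAGAG (4.29) and GAGAGA (3.53) stood at the top of the 20, and the next was AGAGGA with 2.13. Among the 64 6-mers of A and G alone, 42 were called more frequent, against 73 of the 640 6-mers with 3 letters G or C. These sets overlap and their members share letters, so the counts are given without a test.

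**Figure D2:**
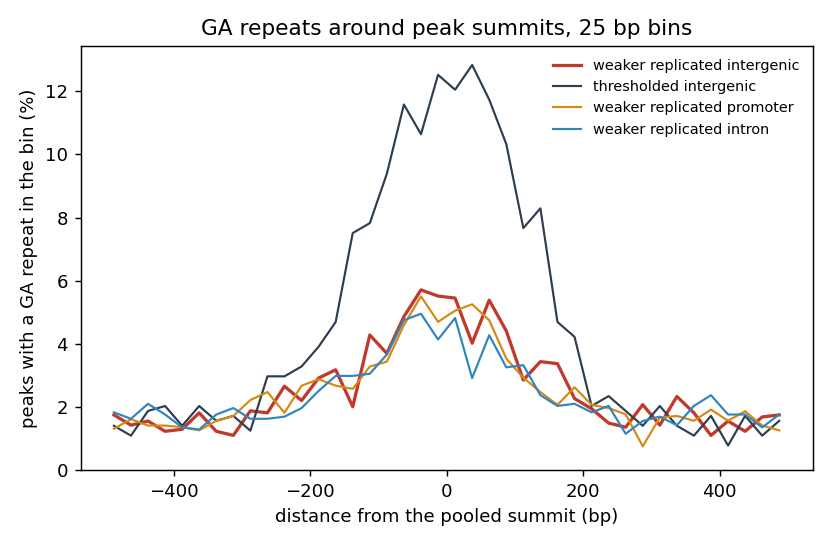
Percent of peaks with a GA repeat starting in each 25 bp bin (y axis) by distance from the pooled summit (x axis, bp), for weaker replicated intergenic peaks (red), thresholded intergenic peaks, weaker replicated promoter peaks and weaker replicated intron peaks. The weaker intergenic peaks reach 5.71% near the summit and stay between 1.10% and 2.34% beyond 300 bp, below the 12.8% of thresholded intergenic peaks.

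Among the weaker intergenic peaks the share with the repeat was larger at higher pooled signal. In 4 equal parts by signal, it lay at the centre of 25 of 386 in the weakest (6.48%, interval 4.23 to 9.41), 55 of 385 in the second (14.3%), 79 of 385 in the third (20.5%) and 102 of 385 in the strongest (26.5%, 22.2 to 31.2). The flank share stayed between 3.64% and 5.71% in these parts. The mean G and C content of the centre moved with it, at 35.3% ± 7.04 (SD, n = 386) in the weakest part, 37.4% and 39.8% in the next and 41.6% ± 7.67 (SD, n = 385) in the strongest, and so did the share of peaks with both replicate summits within 50 bp, which was 45.1%, 53.2%, 59.7% and 62.3%. Their part in the rise was not tested. In the weakest part the centre stood near its flank share of 5.18%.

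Thresholded intergenic peaks carried the repeat more often than the weaker ones. It lay at 261 of 1541 weaker peaks (16.9%) and 232 of 639 thresholded intergenic peaks (36.3%, interval 32.6 to 40.2; 2-sided Fisher exact test, odds ratio 0.358, adjusted p = 1.14e-19, Benjamini-Hochberg over 22 motifs and 3 groups). Of the 22 motifs, 5 differed from thresholded intergenic peaks (22.7%). CACGTG, the E-box of Myc-type factors, was lower in the weaker peaks at 2.40% against 6.89% (adjusted p = 7.56e-05 in the Fisher exact test), and GGGCGG, the core site of Sp1 factors, at 2.34% against 5.01% (adjusted p = 0.0282). TATAAA was higher at 8.96% against 5.16% (Fisher exact test, adjusted p = 0.0363), as was the T block TTTTTTC at 17.9% against 12.2% (adjusted p = 0.0197). Mean G and C content at the centre was 38.6% in the weaker peaks and 45.0% in the thresholded ones, and its part was not tested. The calls for the Sp1 core, the TATA box and the T block (odds ratios 0.454, 1.81 and 1.57) were lost among the 771 stronger of the weaker peaks (0.609, 1.27 and 1.26), with summits of both replicates within 50 bp (0.481, 1.83 and 1.52) and with a promoter window of 2000 bp (0.424, 1.94 and 1.43). That for the Myc-type E-box (0.333) was lost with summits within 50 bp (0.495). The settings by summits and by signal filtered the weaker peaks only, and the thresholded group kept all 639.

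Between weaker peaks at different positions no difference in the repeat was called. The weaker peaks in promoters had it at 16.6% and those in introns at 13.99%, beside 16.9% in intergenic sequence (Fisher exact tests, adjusted p = 1 and 0.175). The call against introns was gained without the need for a summit of replicate 1 (odds ratio 1.27, Fisher exact test, adjusted p = 0.0419). Of the 22 motifs, 1 differed from weaker promoter peaks (4.55%), GGGCGG at 2.34% against 4.14% (Fisher exact test, adjusted p = 0.0363), and 0 differed from weaker intron peaks (0%), where 1 motif had an unadjusted p under 0.05 in the Fisher exact test. Over all 3 groups, 6 differences were called, against 9 without the need for a summit of replicate 1 and 10 without that of replicate 2. The call for GGGCGG against promoters (odds ratio 0.553) was lost among the 771 stronger peaks (0.591), with summits within 50 bp (0.553) and with a promoter window of 2000 bp (0.561).

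**Figure D3:**
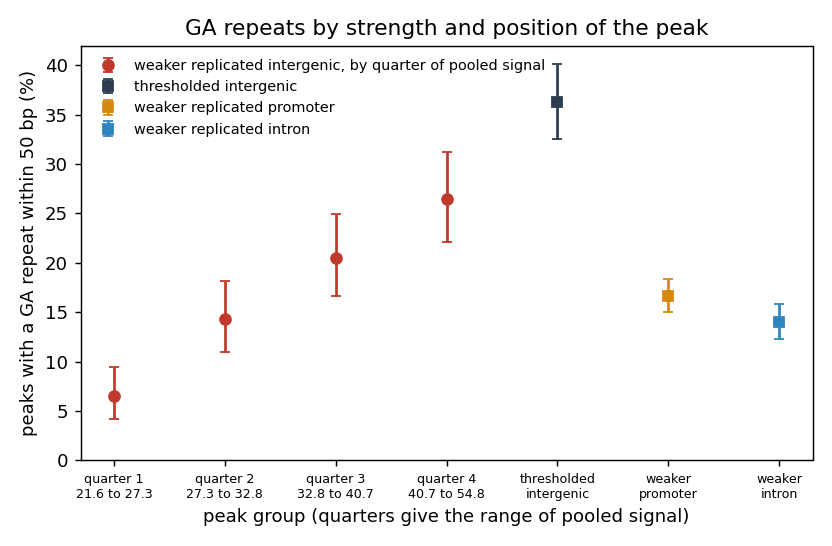
Percent of peaks with a GA repeat within 50 bp of the summit (y axis) for weaker replicated intergenic peaks in 4 parts by pooled signal (red, range of signal under each) and for 3 other groups (squares); bars are 95% exact Clopper-Pearson intervals. The share climbs through 6.48%, 14.3%, 20.5% and 26.5% and stands at 36.3% in thresholded intergenic peaks.

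The runs themselves were short. In the 261 weaker peaks with the repeat the longest alternating run had a median of 7 bases, as in the 232 thresholded ones. Runs of 10 bases or more lay at 34 of 1541 weaker peaks (2.21%) and 50 of 639 thresholded intergenic peaks (7.82%), and runs of 20 or more at 4 and 9. The longest run was 41 bases in the weaker peaks and 36 in the thresholded ones. Of the 261 summits, 61 (23.4%) stood on a base that the reference genome marks as repetitive, close to the 24.6% of all 1541. Peaks with the repeat had a median pooled signal of 38.6 and those without it 31.9.

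The share with the repeat differed between chromosomes in both groups. It was most frequent on I (26.3% of 190, interval 20.2 to 33.2) and III (25.1% of 187, 19.1 to 32.0), against 47.5% and 51.8% of the thresholded intergenic peaks there. It was least frequent on V (10.7% of 281, 7.32 to 14.9) and X (12.4% of 418, 9.43 to 15.99), against 31.0% and 26.8%. The share of all eligible windows varied less, between 4.29% on X and 6.45% on I. These shares were not tested against each other.

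The summits of the weaker peaks lay less often on soft-masked bases, which mark repetitive sequence in the reference genome, than eligible bases did, a difference given without a test. Of 1541 summits, 379 (24.6%, interval 22.5 to 26.8) were soft-masked, beside 42.6% of eligible bases. Thresholded intergenic summits were soft-masked at 14.4% (92 of 639; 2-sided Fisher exact test, odds ratio of weaker over thresholded 1.94, adjusted p = 2.10e-07). Weaker promoter peaks (23.0%, adjusted p = 0.299) and intron peaks (27.1%, adjusted p = 0.185) did not pass the threshold in the Fisher exact test, but the difference from introns passed without the need for a summit of replicate 1 (odds ratio 0.792, adjusted p = 0.000975) or of replicate 2 (0.817, adjusted p = 0.00744). Exact copies of the 51 bases around the summit elsewhere in the genome were rare, at 4 of 1541 weaker peaks and 3 of 639 thresholded intergenic ones.

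The X chromosome held the most weaker intergenic peaks. They numbered 418 on X (27.1%, interval 24.9 to 29.4), 281 on V, 248 on II, 217 on IV, 190 on I and 187 on III. Weaker promoter peaks stood on X at 17.6% (2-sided Fisher exact test, odds ratio 1.74, adjusted p = 2.31e-10, Benjamini-Hochberg over 6 chromosomes and 3 groups) and weaker intron peaks at 22.2% (odds ratio 1.30, adjusted p = 0.0160). X also held 23.4% of eligible intergenic bases. The shares of promoter and intron sequence on each chromosome were not measured. The tests against promoter and intron peaks thus cannot tell the peaks apart from where such sequence lies. Its density was 77.8 peaks per eligible Mb, near the 76.5 of II and above the 46.2 of IV, the lowest. Against weaker promoter peaks 2 of 6 chromosomes differed (33.3%), X and V (18.2% against 21.9%, Fisher exact test, adjusted p = 0.0357). Against weaker intron peaks 2 of 6 differed (33.3%), X and V (18.2% against 14.6%, odds ratio 1.30, Fisher exact test, adjusted p = 0.0357). The call on V against promoters (odds ratio 0.796) was lost with overlapping members counted once (0.805, Fisher exact test, adjusted p = 0.0521), with summits within 50 bp (0.828) and among the 771 stronger peaks (0.867). The call on V against introns was lost without the need for a summit of replicate 1 (1.22), with summits within 50 bp (1.24), with a promoter window of 2000 bp (1.16) and among the 771 (1.15), and that on X against introns among the 771 (1.21). Against thresholded intergenic peaks 0 of 6 were called (0%), none had an unadjusted p under 0.05 in the Fisher exact test, and X held 25.7% of them.

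**Figure D4:**
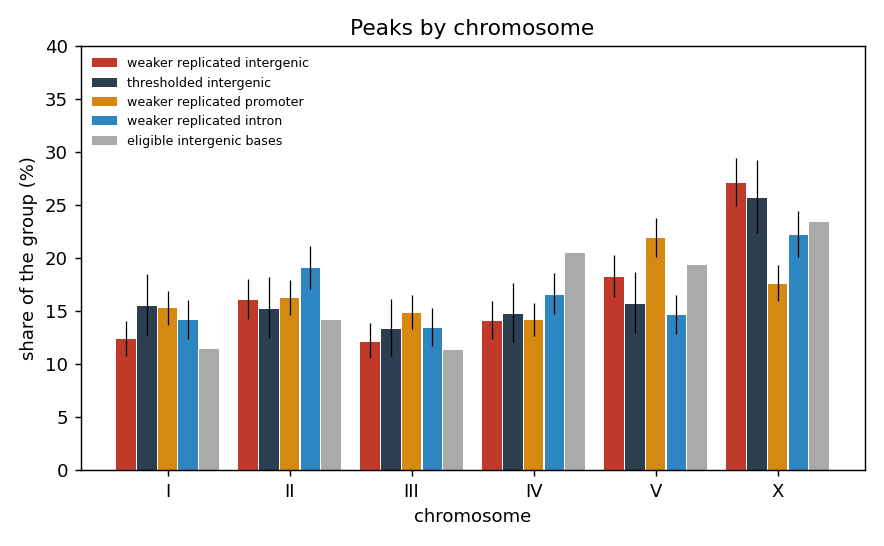
Share of each peak group on each chromosome (y axis, percent; bars from 0, lines are 95% exact Clopper-Pearson intervals) with the share of eligible intergenic bases in grey. Weaker replicated intergenic peaks (red) stand at 27.1% on X, where weaker promoter peaks stand at 17.6%, and lie below the grey bar on IV.

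Most weaker intergenic peaks lay upstream of the nearest gene start. The nearest of 19973 annotated protein-coding starts was a median of 2527 bp away (474 to 34711 bp), against 2315 bp for thresholded intergenic peaks and 2759 bp for eligible bases. The summit lay upstream of that start at 1169 of 1541 (75.9%), against 76.8% of thresholded intergenic peaks and 67.2% of eligible bases. Between genes transcribed away from each other (divergent) stood 536 of the peaks (34.8%, interval 32.4 to 37.2), and between genes transcribed toward each other (convergent) 137 (8.89%, 7.52 to 10.4). Eligible bases were divergent at 30.6% and convergent at 15.8%, and thresholded intergenic peaks at 33.5% and 7.36%. Position was part of the rule, and these shares carry no test.

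**Figure D5:**
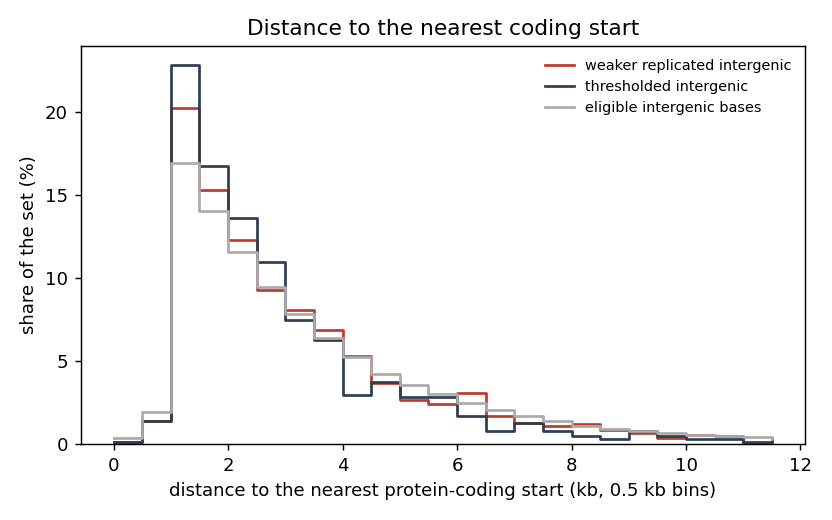
Share (y axis, percent) of weaker replicated intergenic peaks (red), thresholded intergenic peaks (dark) and eligible intergenic bases (grey) by distance from the summit or base to the nearest protein-coding start (x axis, kb). The 1.0 to 1.5 kb bin, just outside the promoter window, holds 20.2% of the weaker peaks, 22.8% of the thresholded ones and 16.9% of eligible bases.

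Weaker intergenic peaks stood near thresholded peaks more often than weaker promoter peaks did. A thresholded summit lay within 5000 bp of 553 of 1541 (35.9%, interval 33.5 to 38.3), against 568 of 1979 weaker promoter peaks (28.7%, 26.7 to 30.8; 2-sided Fisher exact test, odds ratio 1.39, adjusted p = 1.22e-05). Weaker intron peaks had one at 38.2% (odds ratio 0.907, Fisher exact test, adjusted p = 0.200), a difference that passed without the need for a summit of replicate 1 (0.860, adjusted p = 0.0173), for the 771 with the higher signal (0.796, adjusted p = 0.0367) and with 10000 bp in place of 5000 (0.777, adjusted p = 0.00121). Of all eligible positions 18.7% had one. The share was not measured for promoter or intron positions. These tests thus cannot tell the peaks apart from where such sequence lies.

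The peaks fell in 1130 gene-free intervals between protein-coding genes, of 8965 that hold eligible bases, and had 1245 nearest genes. A single weaker peak stood in 853 of the intervals, and 277 held 2 or more, with 687 peaks in all (44.6%). Of the 1130, 220 (19.5%) also held a thresholded intergenic peak. The 6 intervals with 6 members each, chosen after their values were seen, lay between saeg-1 and F32D8.1, got-2.2 and W05H9.4, slc-17.7 and hlh-10, die-1 and lact-2, apl-1 and tbc-7, and H10E21.5 and clp-10. Upstream of die-1, which encodes a zinc finger factor of embryonic morphogenesis, the interval on II (10067918 to 10094872, 26955 bp) held no thresholded intergenic peak, and its 6 summits had pooled signals between 22.7 and 47.7. The strongest, at 10076089 and 8172 bp from the die-1 start, had 19.5 in replicate 1 and 15.8 in replicate 2. Upstream of apl-1, the amyloid precursor protein homologue, the interval on X (5116867 to 5134279) held 6 weaker peaks of 30.3 to 47.0 and 1 thresholded intergenic peak. Some of these share their source, as at H10E21.5, where summits at 27495 and 27702 on III were matched to the same summit of replicate 2, with a signal of 23.5. Of all 1541, 69 (4.48%) overlapped another member.

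The 25 strongest weaker peaks had pooled signals between 53.8 and 54.8. In replicate 1 their signals ran between 15.2 and 58.7 with a median of 26.7, and in replicate 2 between 15.6 and 39.7 with a median of 27.7. Their ranks ran between 752 and 8500 in replicate 1 and between 1617 and 7721 in replicate 2. The 58.7 and the rank of 752 belong to the R05D3.8 peak and lie above the 36.8 reached in replicate 1 by peaks without a shared summit. Of the 25, 16 lay upstream of the nearest start, and 8 held the GA repeat. The genes are given by what each is known to do, which is no test of a theme. Among them were pfk-1.1, phosphofructokinase of glycolysis (X, summit 2939414, 1458 bp upstream), with 27.8 in replicate 1 and 22.6 in replicate 2, aakb-1, a regulatory subunit of the energy sensor AMP-activated kinase (X, 13753174, 2595 bp upstream), with 29.2 and 20.6, and aat-2, an amino acid transporter (V, 9247597, 1237 bp upstream), with 24.4 and 31.3. Each of the 3 stood above the medians over all members in both replicates, but they were chosen by high pooled signal. That signal was called on both replicates, so their replicate values are no separate support.

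The peak of dmd-6, a factor with a DM domain of the kind that controls sexual development, stood 6593 bp upstream of its start on IV (14610010), in an interval with 6 thresholded intergenic peaks, with signals of 31.6 and 23.3 in replicates 1 and 2. The peak of nhr-85, itself a nuclear hormone receptor, lay 1969 bp upstream of its start (I, 13064091) with 30.7 and 24.9. For cec-4, a chromodomain protein that anchors heterochromatin at the nuclear envelope, the signals were 26.8 and 29.5 (IV, 7574077, 1641 bp upstream of the cec-4 start), but the genes that flank the summit were clec-180 and F32E10.5, and the summit lay 45 bp from the snoRNA gene F32E10.10. The peak of hil-3, a linker histone, had only 15.2 in replicate 1 and 38.7 in replicate 2 (X, 8155970, 3199 bp upstream), and lay 147 bp from a tRNA gene, and it ranked 8500 in replicate 1 and 1699 in replicate 2.

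The peak of dlk-1, a MAP kinase kinase kinase of axon regeneration, had 26.7 and 23.3 in replicates 1 and 2 (I, 12575388, 2587 bp upstream). The peak of osm-11, a secreted ligand of the Notch pathway, had 24.8 and 27.7 (X, 17419948, 1634 bp downstream of its start). The peak of tni-1, a troponin I of muscle, had 16.6 and 39.7 (X, 11379560, 2090 bp upstream), with replicate 1 at the level of the median member. The peaks of nlp-47, a neuropeptide gene (IV, 5289133, 1714 bp upstream), and abi-1, a regulator of the actin cytoskeleton (III, 5688429, 4311 bp downstream), had 28.8 and 25.1, and 26.4 and 25.2. Another member near nlp-47, at 5289333, had the same replicate 2 signal of 25.1. Which of these 2 peaks that replicate 2 value belongs to cannot be told. The others of the 25 lay nearest to trx-4, K09A11.1, heh-1, W04D12.1 (2 peaks), nhl-3, gem-4, M03B6.5, R05D3.8, srx-117, saeg-1, gcp-2.1 and C34D1.4.

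Among gene families, nuclear hormone receptors had the nearest start at 41 of the 1541 (2.66%, interval 1.92 to 3.59), over 30 of 269 receptor genes, against 27 of 639 thresholded intergenic peaks (4.23%) and 1.88% of eligible bases. The strongest after nhr-85 were those of nhr-48 (X, 15706295, pooled signal 52.7, 1918 bp upstream), nhr-45 (X, 4662432, 50.5) and nhr-70 (V, 18614816, 48.7), the last with 11.1 in replicate 1 and 39.9 in replicate 2. Genes of developmental timing, the heterochronic genes, had 6 peaks at 3 of 9 genes (0.389% of the peaks, against 0.313% of thresholded intergenic peaks and 0.0974% of eligible bases). They were lin-14, an early larval regulator (X, 11463748, 47.7), hbl-1, the hunchback homologue, with 3 peaks (strongest X, 5815504, 45.5), and daf-12, a steroid-responsive nuclear receptor (X, 10634429, 30.4). A list of 13 body wall muscle genes, which does not hold tni-1, had 4 peaks at 4 genes (0.260% of the peaks, against 0.313% of thresholded intergenic peaks and 0.0717% of eligible bases). They were unc-27, a troponin I (X, 8788040, 52.7), mup-2, a troponin T (X, 6408466, 49.02), act-4, an actin (X, 4959581, 37.7), and myo-3, a myosin heavy chain (V, 12226767, 30.4).

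Homeobox genes had 16 peaks (1.04%), against 2 thresholded intergenic peaks (0.313%) and 0.999% of eligible bases. They included ceh-60 (X, 6532036, pooled signal 45.0), ceh-48 (IV, 6809951, 40.7), ceh-79 (V, 13300592, 36.4) and the Hox gene lin-39 (III, 7545449, 40.6), whose summit lay 8817 bp upstream. Genes of basic helix-loop-helix factors had 7 (0.454%), against 0.156% of thresholded intergenic peaks and 0.333% of eligible bases, among them hlh-30, the TFEB homologue of lysosome regulation (IV, 4036974, 51.7), hlh-10, hlh-29 and hlh-2. Neuropeptide genes had 25 (1.62%, against 0.782% and 1.59%), led by nlp-47, nlp-3 (X, 13182101, 51.1), the insulin-like ins-39 (X, 1348097, 46.8) and flp-7 (X, 5883665, 45.9). A list of 34 zinc finger and SOX factors, which does not hold die-1, had 8 (0.519%, against 0.156% and 0.296%), led by klf-1 (III, 2871992, 48.8). GATA factors had 2 (0.130%, against 0% and 0.171%), at egl-18 and elt-3. T-box factors had 1 (0.0649%, against 0% and 0.198%), at tbx-41, and Wnt ligands and receptors 2 (0.130%, against 0% and 0.133%), at cam-1 and cwn-2.

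Chemoreceptors, the largest list with 1298 genes, had 35 peaks (2.27%, interval 1.59 to 3.14), against 1.41% of thresholded intergenic peaks and 4.54% of eligible bases. The strongest lay nearest to srx-117 (V, 5643199, pooled signal 54.1), sri-72, srg-26 and srd-33, all on V. F-box genes had 7 (0.454%, against 0.156% and 1.23%) and C-type lectins 6 (0.389%, against 0.156% and 0.644%). Cuticle collagens had 6 (0.389%, against 0.782% and 0.717%), led by col-105 (IV, 1362028, 45.5) and dpy-3 (X, 2144416, 36.6). Detoxification enzymes had 3 (0.195%, against 0.313% and 0.421%), potassium channels 6 (0.389%, against 0.313% and 0.348%) and ribosomal proteins 2 (0.130%, against 0% and 0.203%). The list of 50 histone genes had 0 (exact upper bound 0.239%), but it does not hold the linker histone hil-3, whose peak is given above. A nearest start is a position only, need not be that of the gene next to the peak, and does not show which gene a peak acts on, and the 18 lists were given no test.

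Beside noncoding genes, the weaker peaks did not differ from thresholded intergenic peaks by the test. Of 10 classes, 0 were called (0%; 2-sided Fisher exact tests, Benjamini-Hochberg over 10), and none had an unadjusted p under 0.05. Genes annotated as ncRNA lay within 500 bp of 206 summits (13.4%, interval 11.7 to 15.2), against 11.7% of thresholded intergenic peaks and 8.20% of eligible bases. tRNA genes lay beside 36 (2.34%, against 2.50% and 0.691%), and a tRNA gene lay 32 bp from the K09A11.1 peak whose GA run is shown above. MicroRNA genes lay beside 13 (0.844%, against 0.469% and 0.386%), the strongest being mir-72 (II, 2452489, pooled signal 46.8), mir-34 (X, 2970083, 45.7), mir-238 (III, 8867435, 41.0) and mir-231 (III, 7545449, 40.6), the last at the lin-39 peak. snoRNA genes lay beside 14 (0.909%, against 1.88% and 0.304%) and lincRNA genes beside 12 (0.779%, against 1.56% and 0.755%), led by linc-103 (X, 6256581, 48.5) and linc-55 (V, 5994755, 46.5). With 1000 bp in place of 500, snoRNA (1.49% against 3.44%, Fisher exact test, adjusted p = 0.0360) and lincRNA genes (0.844% against 2.66%, adjusted p = 0.0187) were called lower in the weaker peaks.

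Pseudogenes and piRNA genes were rarer at the peaks than in eligible sequence. Pseudogenes lay within 500 bp of 46 summits (2.99%, interval 2.19 to 3.96), against 1.56% of thresholded intergenic peaks and 9.37% of eligible bases. piRNA genes, which lie in large clusters on IV and encode small RNAs of the germline, lay within 500 bp of 65 (4.22%, 3.27 to 5.34), 57 of them on IV, against 4.54% of thresholded intergenic peaks and 8.73% of eligible bases. Only 2 summits stood inside a piRNA gene, both on IV. No weaker peak lay beside an rRNA gene (0 of 1541, exact upper bound 0.239%). The shares of eligible bases are given as a description without a test.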

How the data were processed

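ChIP-seq peak lists of 1 group, 2 biological replicates of strain OP305, were analysed in build ce11 (ce10 only as an alternative). Per the texts deposited with the files, the authors called each replicate's peaks and background regions on that replicate. The pooled list, which likewise mixes peaks with background regions, was made from both replicates. The thresholded list was made by irreproducible discovery rate. The sources used here name no aligner, caller or threshold. The deposited signal is a score of the authors' caller without a stated scale, the deposited −log10 q value was only described, and the deposited summit offset places the summit. No column of read counts exists, so depth is unknown. Replicate lists were called separately, so signals are given within each list and ranks where the replicates are set against each other. A planned test of the replicates' summit positions is not given, because the rule used those positions.

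The members, gene lists and motifs were chosen with earlier results of these data known, and some gene lists were edited after the files were seen. A pooled peak counted as found in a replicate where that replicate had a summit inside it. Genes were those of Ensembl release 115 (WBcel235, the sequence of ce11), 1 start per gene. Sequences and soft-masking were read from the RefSeq genome of WBcel235, and how it was masked is not given in the sources used here. Eligible bases (22972836 bp, 22.9% of the genome) are all positions that follow the position rule, and windows over them were sampled every 50 bp. Motifs were searched on both strands. Centre and flank were compared by exact McNemar tests and groups of peaks by 2-sided Fisher exact tests, with Benjamini-Hochberg adjustment in each family and a threshold of 0.05. Tests were checked on simulated data. Named genes are the nearest starts of the 25 strongest members, up to 4 per gene list and the noncoding genes at up to 4 members per class, some of them left unnamed for brevity; exceptions are stated. Python 3.11.15, numpy 2.4.6, pandas 2.3.3 and scipy 1.17.1 were used. Alternatives dropped the need for a summit of each replicate in turn (the pooled list, made from both, could not be remade from 1). Others kept only weaker peaks with close replicate summits or stronger signal, with the thresholded peaks unfiltered. Others again changed the promoter window, flank, centre, distances and build.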

Additional observations from a re-analysis of the deposited data

How the results depend on the processing

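Of 191 alternatives of single tests, 150 kept their direction and their side of the threshold, 22 lost the call, 6 gained one and 13 turned direction. None of the 13 had a call in the main analysis. The 191 include alternatives on replicate summits, whose positions the rule used, so that part of the counts is no support. The setting with the middle of the interval as centre is counted among the 150 but could change nothing. The middle was the summit at every member. The GA repeat at the centre against the flank and against thresholded intergenic peaks, the share on X against weaker promoter peaks, soft-masking against thresholded intergenic peaks, and thresholded peaks near by against weaker promoter peaks kept both under every alternative run for them. For the share on X and for thresholded peaks near by, no alternative took in how promoter sequence is spread over the genome.

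The number of peaks was 849 with replicate summits within 50 bp and 771 in the stronger part by signal. With summits within 50 bp, 1 motif share differed between groups and 168 6-mers were called. Among the 771, 2 motif shares and 1 chromosome share were called. A promoter window of 2000 bp gave 3 motif shares and 179 6-mers. A window of 500 bp gave 10 motif shares, 7 motifs at the centre and 1 noncoding class. The right flank gave 8 motifs at the centre, and 1000 bp around noncoding genes gave 2 classes. Not asking for a summit of replicate 1 or 2 gave 9 to 10 motif shares and 6 to 7 motifs at the centre, but the pooled and thresholded lists still held both replicates, so these settings do not leave a library out. The cause was not tested.

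Odds ratios that turned direction, none of them called, were those of the GA repeat against weaker promoter peaks (0.938 with summits within 50 bp, 0.9065 with 2000 bp, and 0.9899 to 1.074 without the summit of a replicate), soft-masking in the 771 (0.9161 against promoters, 1.072 against introns), replicate summits against promoters (1.06 in the 771, 0.8757 to 1.041 without the summit of a replicate) and against introns (0.9703 to 1.067), and thresholded summits within 2000 bp against introns (1.023). The ratio of AGGTCA was 0.96 with summits within 50 bp, 1 with a window of 500 bp, 0.9388 with the right flank and 0.913 with a centre of 25 bp.

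The 50 bp setting gives no value for the replicate summits, which it fixes. In build ce10, 6070 weaker peaks were found in both replicates, against 6064 in ce11. No paired analysis was possible because there is only 1 group.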

Other observations

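Around nhr-11 and unc-119, the genes that the sample labels name, no weaker replicated intergenic peak was found. Of all pooled peaks 11.4% were among the 1541, so 0 of the few peaks at these loci is no result about them. Within 20000 bp of nhr-11 on IV (9070003 to 9073622) lay 2 pooled peaks, 0 of them among the 1541, with a highest pooled signal of 31.4. Within 20000 bp of unc-119 on III (10902641 to 10908935) lay 3 pooled peaks, of which 0 were among the 1541 and 1 was thresholded, with a signal of 126.3.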
